A study of Sus scrofa with 4 samples.

Results

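Molecular chaperones were followed in pig (Sus scrofa) blastocysts whose oocytes had met elevated non-esterified fatty acids (NEFA), and in control blastocysts whose oocytes had not. The members were the probes whose gene symbol names a heat shock protein, a J-domain protein, a subunit of the cytosolic chaperonin or of prefoldin, BAG1 to BAG6, STIP1 or AHSA1, with HSPA5 left out. The array held 95 such probes for 71 genes, out of 43794 probes, and 58 of them, for 48 genes, were bright enough to test. That is 61.1% of the member probes, against 39.1% of all probes and 43.4% of those with a symbol. The symbols alone chose the members, and they reach beyond the cytosol. In an approximate sorting from general knowledge, 54 of the 71 genes were counted as chaperones or co-chaperones of cytosol and nucleus. Another 6 were counted as mitochondrial and 9 as proteins of the endoplasmic reticulum or of membranes. Some J-domain proteins of membranes, such as DNAJB12 and DNAJB14, were counted with the cytosol. The remaining 2 match by name only: HSPG2 is the matrix proteoglycan perlecan, and HSPBAP1 is a protein that binds a small heat shock protein.

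Each of 4 two-colour arrays carried amplified RNA of a NEFA pool in 1 dye and of a control pool in the other. By the labels, NEFA RNA was in Cy3 on arrays 1 and 2 and in Cy5 on arrays 3 and 4. The sign of every ratio rests on these dye labels, which could not be checked independently. Pools held 10 blastocysts, 4 pools are named, and collection fell on days 7 and 8, without a statement of whether 1 pool mixed both. Whether there were 4 pools per condition is not stated either, so the 8 pools counted here, 1 for each channel of each array, are an assumption. All groups were whole pooled embryos, and neither the fatty acids nor their concentration are given in the sources used here. The arrays are labelled as biological replicates. Separate cultures are not stated, and p-values therefore cover the spread of these 4 arrays, which may be technical.

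Chaperones hold unfolded proteins out of aggregates and help them fold. HSP70 proteins bind short hydrophobic stretches in a cycle driven by ATP, in which J-domain proteins (HSP40) deliver the client and stimulate hydrolysis and nucleotide exchange factors release it. HSP90 takes over late folding steps of kinases and receptors, with STIP1 handing clients across from HSP70 and AHSA1 speeding its ATPase. The chaperonin CCT, a double ring of different subunits, encloses newly made actin and tubulin, which prefoldin brings to it, while the small heat shock proteins hold unfolded proteins without ATP. Early embryos make constitutive HSP70 and HSP90 in large amounts.

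Ratios are given on the log2 scale, with NEFA on top. The value for a gene over all arrays is the limma estimate from a fit with a dye term, given as estimate ± SE with n = 4 arrays. A probe was tested if at least 3 of 4 pools of 1 condition lay over the limit, set 2 SD above the mean of 153 negative control spots. A gene with several tested probes is represented by the brightest. In the whole of the array, 39.9% to 46.1% of probes exceeded this limit in the NEFA pools and 38.3% to 49.0% in the control pools. The ratios of arrays 2 and 4 ran against each other, with r = -0.54 across the 17144 tested probes, while the other pairs of arrays lay between -0.29 and 0.16. Those are correlations across probes, which are not independent. Of the trophectoderm markers, 5 of 8 were measured, among them TFAP2C and TEAD4 above the limit in 4 of 4 NEFA and 4 of 4 control pools, while ELF5 was above it in 0 of 4 NEFA and 3 of 4 control pools. Of 3 inner cell mass markers only SOX2 had a named probe, which was not bright enough to test. The summed intensity of the trophectoderm markers ran from 69306 to 79229 in NEFA pools and from 61469 to 79783 in control pools. TFAP2C made up most of it, at 40533 to 53626 and 36914 to 56376. Estimates were 0.22 ± 0.20 for TFAP2C and 0.14 ± 0.15 for TEAD4. They were below 0 for ELF5 at -0.35 ± 0.14, GATA3 at -0.35 ± 0.21 and DAB2 at -0.14 ± 0.15. Second probes gave 0.24 ± 0.28 for TFAP2C and -0.45 ± 0.16 for DAB2. Further probes of ELF5, TEAD4 and DAB2 were not bright enough to test. Their mean ratios were 0.13, -0.29 and -0.07, so those of ELF5 and TEAD4 had the opposite sign to the tested probe. ELF5 and GATA3 were tested through the control pools alone, so the filter favours their sign. At a Benjamini-Hochberg adjusted p of 0.05, limma called 0 of the 5. The cumulus list kept 1 of 7 genes, FST, at 1082 to 2071 in NEFA pools and 1349 to 2631 in control pools, with FSHR, CYP19A1 and TNFAIP6 without a named probe. PTX3 was above the limit in 2 of 4 NEFA and 2 of 4 control pools, HAS2 in 1 and 0, and INHBA in 0 of 8. The oocyte list kept 3 of 6 genes, with summed intensities of 999 to 1344 in NEFA pools and 1027 to 1219 in control pools. Estimates were -0.46 ± 0.23 for FST, 0.31 ± 0.15 for GDF9, 0.09 ± 0.15 for ZP3 and 0.02 ± 0.14 for ZP4. Of these genes limma called 0 at the adjusted threshold. ZP3 was tested through the NEFA pools alone, so the filter favours its sign. ZAR1 was above the limit in 1 NEFA and 1 control pool, NLRP5 by 1 of its probes in 1 and 1 and by the other in 1 and 0, and BMP15 in 0 of 8. The part of these cells in the results below was not tested.

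Detection separated the families. Both HSP90 genes, all 5 chaperonin CCT genes and all 4 prefoldin genes with a named probe had a tested one. The small heat shock proteins had a tested probe for 0 of 6 genes. Among the HSP70 genes 6 of 10 were tested, among the HSP40 genes 27 of 36, and among the co-chaperones 2 of 5. In all, 67.6% of member genes had a tested probe, against 46.9% of the 10024 genes with a symbol on the array. A probe's brightness depends on its sequence, so levels of different probes are not set against each other here. HSP40 probes exceeded the limit in 126 of 196 readings from NEFA pools and in 126 of 196 from control pools, and prefoldin probes in 21 of 24 readings of each. For CCT the counts were 33 of 40 readings from NEFA pools and 28 of 40 from control pools, and for HSP70 28 of 52 and 25 of 52. Over all probes the share above the limit was 39.9% to 46.1% in NEFA pools and 38.3% to 49.0% in control pools. The CCT gap came from dim probes: CCT3 at 2 NEFA and 0 control pools, TCP1 at 3 and 1, CCT7 at 4 and 3. The brightest probe of each CCT gene exceeded the limit in 4 of 4 NEFA and 4 of 4 control pools. The HSP70 gap came from probes not bright enough to test. With whole pooled embryos, fewer cells of a type and less RNA per cell cannot be told apart.

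The small heat shock proteins were the family at the detection limit. HSPB1, the ubiquitous member that binds actin filaments, exceeded the limit in 1 NEFA pool and 1 control pool, of 4 each. HSPB2 did so in 1 NEFA pool and HSPB3 in 1 control pool, and HSPB6, HSPB8 and HSPB9 in 0 of 8 pools. These probes give no level for the transcripts. CRYAB, a small heat shock protein outside the symbols used to choose the members, was above the limit in 4 of 4 NEFA and 3 of 4 control pools. Its ratios were -0.29, 0.22, 0.32 and -1.65 on arrays 1 to 4, and its estimate of -0.35 ± 0.33 leaned on array 4.

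No member differed detectably between NEFA and control pools. The limma fit called 0 of 58 member probes at a Benjamini-Hochberg adjusted p of 0.05, against 0% of the 17144 tested probes, and each adjusted p was 1.00 after rounding. At an unadjusted p under 0.05 there was 1 member probe, for the chaperonin subunit CCT7, against 1.53% of all tested probes. Estimates were above 0 for 29 probes and below 0 for 29, where 48.4% of all tested probes were above 0. The estimates ran from -0.56 to 0.31, and 0 of 58 reached 1.5-fold, against 0.507% of all. The same direction on 4 of 4 arrays was seen for 4 member probes, against 7.82% of all. The 95% interval lay within 2-fold either way for 57 of 58 member probes, against 95.8% of all, and within 1.5-fold for 33, against 62.1%. The exception at 2-fold was TCP1. A dye effect at an unadjusted p under 0.05 was found for 1 member probe, against 6.55% of all. Of the 58 probes, 4 were tested through the NEFA pools alone and 3 through the control pools alone, so the counts describe the tested probes and not all 95.

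HSP70 estimates ran from -0.15 to 0.25, with 4 of 6 above 0. The 95% intervals were wide for some genes, at -0.16 to 0.66 for HSPH1 and -0.78 to 0.47 for HSPA14. HSPA8, the constitutive HSP70 of the cytosol, gave intensities of 59714, 52354, 64568 and 63347 in the NEFA pools of arrays 1 to 4 and of 59620, 62583, 56637 and 63818 in the control pools. The conditions overlapped, and the estimate was -0.02 ± 0.14 with a 95% interval of -0.37 to 0.33. Raw HSPA8 signals reached 65476 and stayed just below the scanner ceiling of 65535, and whether this narrowed the ratio was not tested. HSPA4, an HSP110 protein that acts as nucleotide exchange factor, and the mitochondrial HSP70 HSPA9 were also bright, with raw signals up to 58511 and 64442. HSPA4 had ratios of -0.22, -0.08, 0.31 and 0.31 on arrays 1 to 4 and an estimate of 0.08 ± 0.13. HSPA9 had -0.11, -0.17, 0.49 and 0.34, with an estimate of 0.14 ± 0.13. Both genes were below 0 with NEFA in Cy3 and above 0 with NEFA in Cy5.

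The other HSP70 genes varied more between arrays. HSPH1, the second HSP110 protein, was at 0.38, 0.38 and 0.45 on arrays 1 to 3 and at -0.22 on array 4, and its estimate was 0.25 ± 0.17. Its intensities were 8387, 6007, 6560 and 4721 in NEFA pools and 6453, 4614, 4803 and 5491 in control pools, so the conditions overlapped. HSPA14, an HSP70 of the ribosome, was at 0.77 on array 3 and between -0.66 and -0.29 on the others, with an estimate of -0.15 ± 0.25 that was 0.20 without array 4. HSPA2, best known from male germ cells, ranged from -0.48 on array 2 to 0.81 on array 3, with an estimate of 0.09 ± 0.17 that was -0.07 without array 3. On array 3 all 6 genes had a ratio above 0, on array 2 only HSPH1 did. HSPA4L, HSPA12A, HSPA12B and HSPA13 were not bright enough to test. HSPA1A, HSPA1B and HSPA1L, the stress-induced cytosolic HSP70 genes and a close relative, were not among the symbols of the named probes used here.

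HSP90 ratios differed widely between arrays, and their estimates lay near 0. HSP90AA1, the stress-inducible form, gave intensities of 26623, 33875, 26651 and 18827 in the NEFA pools of arrays 1 to 4 and 29672, 26812, 25576 and 32910 in the control pools. HSP90AB1, the constitutive form, gave 20121, 32926, 20201 and 15157 in NEFA pools and 23071, 17906, 18239 and 24798 in control pools. For both genes the NEFA pool of array 2 was the brightest of the NEFA pools and that of array 4 the dimmest, and NEFA and control pools overlapped. The ratios were 0.34 on array 2 and -0.81 on array 4 for HSP90AA1, and 0.88 and -0.71 for HSP90AB1, with values between -0.20 and 0.15 on arrays 1 and 3. The estimates were -0.14 ± 0.20 for HSP90AA1 and 0.03 ± 0.24 for HSP90AB1. Neither direction held up: HSP90AA1 was at 0.07 without array 4, and HSP90AB1 at -0.24 without array 2, -0.18 without array 3 and -0.06 with median centring in place of loess. The 2 genes are close in sequence, and how far a probe of 1 also binds the other was not tested.

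AHSA1, the activator of the HSP90 ATPase, also had its highest ratio on array 2 and its lowest on array 4. Its intensities were 12957, 11096, 10562 and 6489 in the NEFA pools of arrays 1 to 4 and 14811, 7499, 12685 and 16805 in the control pools. The ratio was 0.57 on array 2, -1.37 on array 4 and -0.19 and -0.26 on arrays 1 and 3. The control pool of array 4 was the brightest of all 8 and the NEFA pool of that array the dimmest. The estimate of -0.32 ± 0.24 was within the spread, with a 95% interval of -0.91 to 0.28. Leaving out array 4 brought it to -0.039 and array 1 to -0.13, while leaving out array 2 gave -0.51 and array 3 gave -0.59. STIP1, the adaptor between HSP70 and HSP90, exceeded the limit in 1 of 4 NEFA and 0 of 4 control pools and was not tested.

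**Figure D1:**
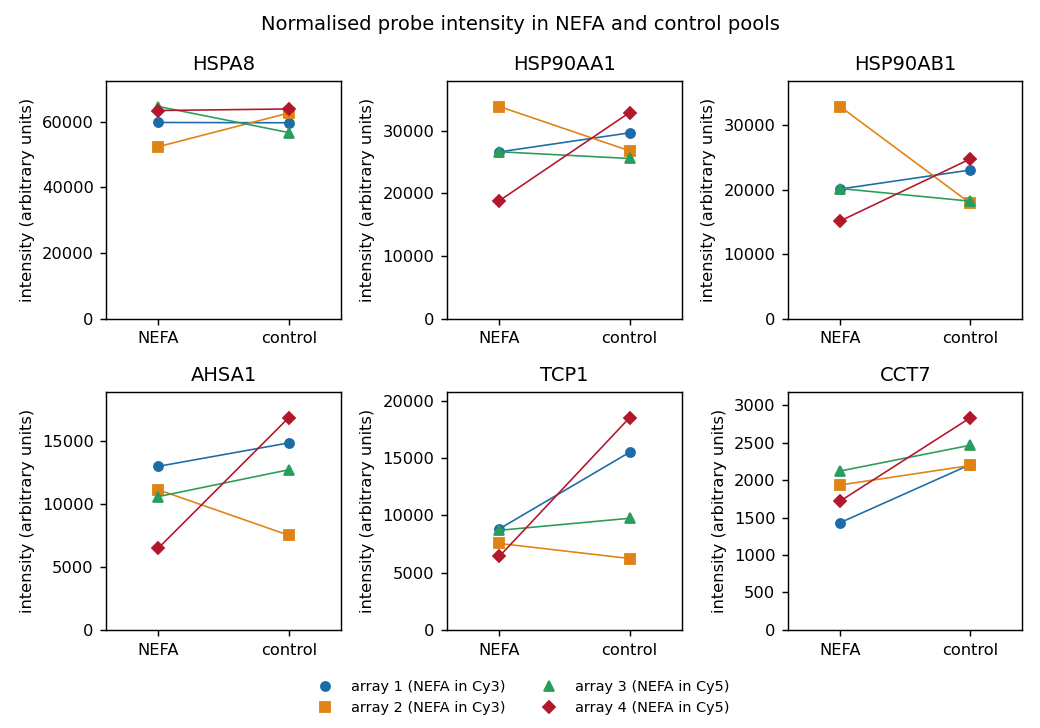
Intensity of the representative probe (arbitrary units, after loess within and A-quantile normalisation between arrays) in NEFA pools at the left and control pools at the right of each panel, with a line joining the pools of 1 array. For HSP90AA1, HSP90AB1, AHSA1 and TCP1 the lines of arrays 2 and 4 slope in opposite directions, while the 4 lines of CCT7 slope the same way.

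The chaperonin CCT had the lowest ratios of the families, with 5 of 5 estimates below 0. No test was made of the family, and of its genes 0 passed the adjusted threshold. CCT7, the eta subunit, had intensities of 1432, 1935, 2122 and 1720 in the NEFA pools of arrays 1 to 4 and of 2208, 2196, 2466 and 2833 in the control pools. All 4 NEFA pools lay below all 4 control pools, which was the case for 1 member probe and, in either direction, for 1.17% of all tested probes. The ratios of CCT7 were -0.63, -0.18, -0.22 and -0.72, and its estimate was -0.44 ± 0.17 with an unadjusted p of 0.041 and an adjusted p of 1.00 in limma. A dimmer CCT7 probe gave 0.16, -0.18, -0.09 and 0.47, with an estimate of 0.09 ± 0.17, so the lower signal rests on 1 of 2 tested probes. The dimmer probe lay near the limit, at intensities of 263 to 371, and exceeded it in 4 of 4 NEFA and 3 of 4 control pools.

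TCP1, the alpha subunit, had the largest estimate of any member, -0.56 ± 0.29, with a 95% interval of -1.28 to 0.16. Leaving out array 4 or 1 brought it to -0.22 or -0.29, and leaving out array 2 or 3 to -0.83 or -0.90. Intensities were 8812, 7547, 8692 and 6409 in NEFA pools and 15496, 6232, 9741 and 18513 in control pools. The NEFA pools were close to each other and the control pools were spread, so the ratio was -0.81 and -1.53 on arrays 1 and 4 but 0.28 and -0.16 on arrays 2 and 3. A second TCP1 probe had the same order of arrays, with -0.31, 0.23, -0.14 and -0.95 on arrays 1 to 4 and an estimate of -0.29 ± 0.20. The third probe, the dimmest, was at -0.98 on array 1 and 0.87 on array 4, with an estimate of 0.06 ± 0.24, and was tested through the NEFA pools alone.

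The beta, gamma and delta subunits were nearer 0. CCT2 stood at -0.34, -0.23, 0.27 and -0.05 on arrays 1 to 4, with an estimate of -0.09 ± 0.14. CCT3 ranged from -0.66 on array 1 to 0.24 on array 2, with an estimate of -0.20 ± 0.19 that was 0.03 without array 1. CCT4 was at 0.70 on array 1 and between -0.44 and -0.13 on the others, with an estimate of -0.04 ± 0.18. Its sign turned to 0.17 without array 2, to 0.0016 without array 4 and to 0.02 in the authors' deposited table. On array 1 the subunits spread from -0.81 for TCP1 to 0.70 for CCT4, and the probes of TCP1 alone spread from -1.53 to 0.87 on array 4. Differences between subunits were not tested. CCT5, CCT6A and CCT8 were not among the symbols of the named probes used here.

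Prefoldin stood on the other side of 0, with 4 of 4 estimates above it and no gene past the threshold. PFDN4 had intensities of 3801, 3221, 3066 and 3308 in NEFA pools and of 2567, 2710, 3248 and 2945 in control pools. Only on array 3 was its ratio below 0, at -0.08, and the estimate was 0.23 ± 0.15. PFDN5 was at -0.15, 0.41, 0.10 and 0.30 on arrays 1 to 4, with an estimate of 0.17 ± 0.16, and a second probe at -0.03 ± 0.17. PFDN6 was at 0.73 on array 4, where its control pool was dim at 399, and its estimate of 0.07 ± 0.20 was -0.18 without that array. PFDN2 was near equality at 0.0066 ± 0.14, with ratios of -0.18 to 0.17. VBP1, a prefoldin subunit outside the symbols used to choose the members, was at -0.10 ± 0.20, and PFDN1 was not among the symbols of the named probes used here. HSPD1, the chaperonin of mitochondria, gave 0.11 ± 0.15 by its brighter probe and -0.21 ± 0.14 by the other, and HSPE1, its lid, had no probe under this symbol.

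**Figure D2:**
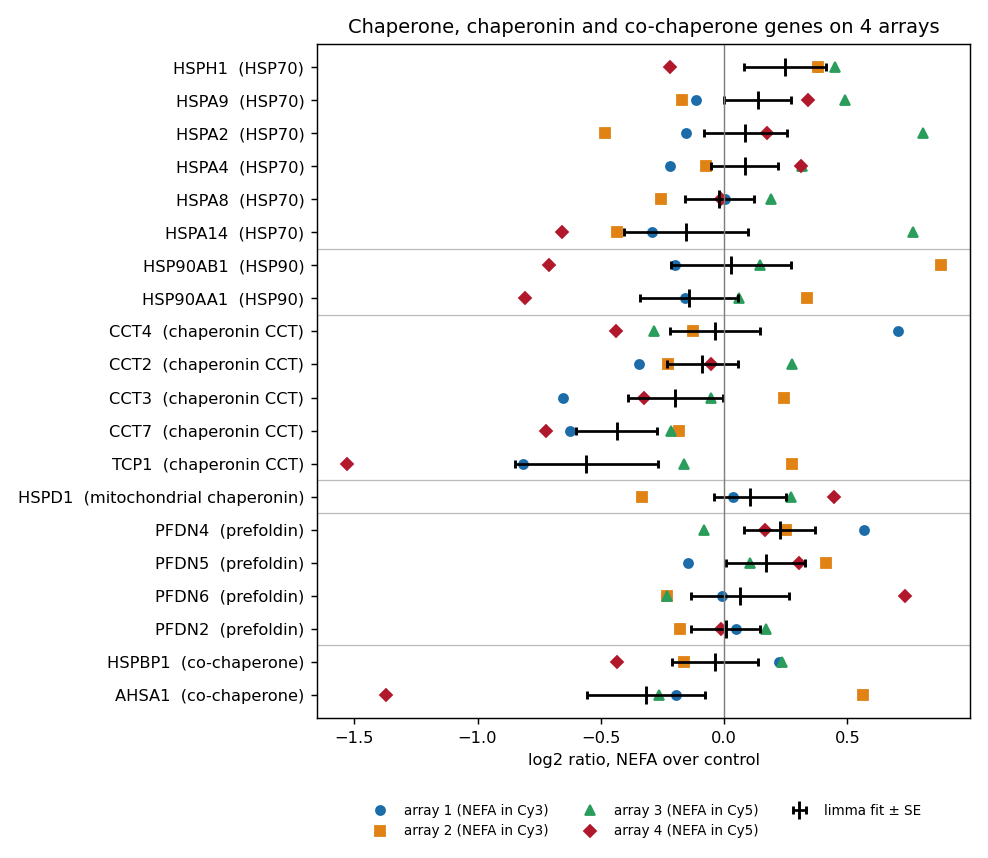
Log2 ratio of NEFA over control (horizontal axis) of the tested HSP70, HSP90, chaperonin, prefoldin and co-chaperone genes, 1 row a gene, with a symbol for each array and a black mark for the limma estimate ± SE. The 5 CCT estimates lie left of 0 and the 4 prefoldin estimates right of it, and in most rows the arrays spread to both sides.

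The J-domain proteins, the most numerous family, lay evenly around 0. Of 27 tested genes 12 had estimates above 0 and 15 below, from -0.27 to 0.31, with SEs of 0.13 to 0.30. DNAJA1, a general partner of HSP70 in the cytosol, had the highest, with intensities of 33637, 29810, 25148 and 20531 in NEFA pools and 18634, 27243, 18322 and 23879 in control pools. Its ratios were 0.85, 0.13, 0.46 and -0.22, and its estimate was 0.31 ± 0.20. Without array 1 it was 0.12 and without array 3 it was 0.14, against 0.49 without array 2 and 0.47 without array 4. A second DNAJA1 probe was at 0.75 on array 2 and -0.58 on array 4, with an estimate of 0.03 ± 0.27, so the probes of the gene gave different orders of arrays. DNAJA2, its close relative, was at 0.09 ± 0.15. DNAJB1, the stress-induced partner of HSP70, was at -0.14, 0.21, 0.26 and 0.05 on arrays 1 to 4, with an estimate of 0.10 ± 0.15. DNAJC7, which binds both HSP70 and HSP90, was at -0.15 ± 0.14, with -0.49 on array 2.

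Only DNAJC19 and DNAJC21 had a representative probe above 0 on 4 of 4 arrays, and 0 genes of the family were below 0 on all of them. DNAJC19, of the inner mitochondrial membrane, stood at 0.03, 0.27, 0.28 and 0.25 on arrays 1 to 4, with an estimate of 0.21 ± 0.14. Its second probe was at -0.31 on array 1 and had an estimate of 0.08 ± 0.15. DNAJC21, which acts in ribosome assembly, had intensities of 546, 771, 661 and 557 in NEFA pools and 527, 653, 622 and 486 in control pools. The pools overlapped between conditions although each NEFA pool exceeded the control pool of its own array, and the estimate was 0.14 ± 0.14. The less bright of the tested DNAJC15 probes was also above 0 on 4 of 4 arrays, at 0.21 ± 0.16, while the brighter one was at -0.0042 ± 0.14.

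The next 6 genes were chosen after their values were seen. Among J-domain proteins of the endoplasmic reticulum, where they serve HSPA5, DNAJB9 was at 0.27 ± 0.20 with 0.87 on array 2, DNAJB11 at 0.06 ± 0.22 and DNAJC10 at -0.20 ± 0.29. DNAJC10 ranged from -1.03 on array 4 to 0.44 on array 3. The lowest estimate of the family was that of DNAJC9, a histone chaperone, at -0.27 ± 0.24, with intensities of 971, 1796, 1321 and 1267 in NEFA pools and 1373, 1188, 1538 and 2462 in control pools. Like HSP90 and AHSA1 it was above 0 on array 2, at 0.60, and below 0 on array 4, at -0.96. DNAJB5 had this order too, at 0.77 and -1.07, whereas DNAJC2, the ribosomal J protein, had the reverse, at -1.01 and 0.10. DNAJC12, DNAJC16 and DNAJC24 were tested through the control pools alone and DNAJC8 through the NEFA pools alone, so the signs of their estimates, -0.21, -0.16, -0.21 and 0.12, are favoured by the filter. DNAJB2, DNAJB4, DNAJB8, DNAJB13, DNAJC4, DNAJC5B, DNAJC6, DNAJC27 and DNAJC30 were not bright enough to test.

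**Figure D3:**
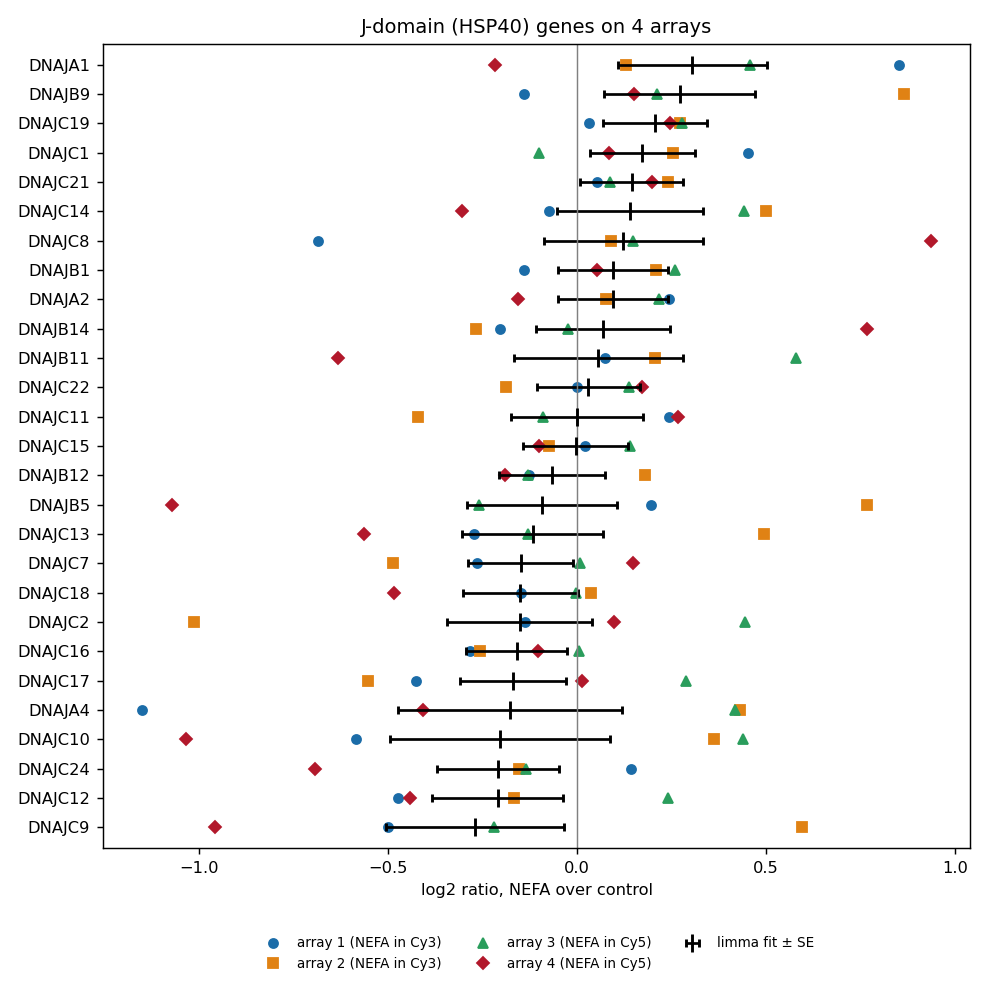
Log2 ratio of NEFA over control (horizontal axis) of the 27 tested J-domain genes, 1 row a gene from the highest to the lowest estimate, with a symbol for each array and a black mark for the limma estimate ± SE. Estimates run from -0.27 for DNAJC9 to 0.31 for DNAJA1, and single arrays reach farther out than any estimate.

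The remaining co-chaperones gave few values. HSPBP1, a nucleotide exchange factor of HSP70, was at 0.22, -0.16, 0.23 and -0.43 on arrays 1 to 4, with an estimate of -0.04 ± 0.18 that was 0.13 without array 4. BAG3, an exchange factor that links HSP70 to autophagy, exceeded the limit in 2 of 4 NEFA and 1 of 4 control pools, and BAG4 in 0 of 8 pools. BAG1, BAG2, BAG5 and BAG6 were not among the symbols of the named probes used here. HSPBAP1, which matches by name only, was at 0.35, 0.48, -0.02 and 0.39, with an estimate of 0.30 ± 0.15 (limma adjusted p of 1.00). HSPG2 exceeded the limit in 2 of 4 NEFA and 1 of 4 control pools and was not tested.

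Set side by side on each array, the families did not share 1 direction. The mean of the 4 array medians was 0.05 ± 0.31 for HSP70 (6 genes), -0.06 ± 0.57 for HSP90 (2 genes), 0.0069 ± 0.15 for HSP40 (27 genes), -0.34 ± 0.24 for CCT (5 genes), 0.08 ± 0.11 for prefoldin (4 genes) and -0.18 ± 0.49 for the co-chaperones (2 genes), each with the SD over 4 arrays. The same mean over all tested probes was -0.0097 ± 0.024. Over 4686 tested genes with a symbol, each by its brightest probe as in the families, it was -0.018 ± 0.029. CCT was the family whose median was below 0 on 4 of 4 arrays, at -0.63, -0.13, -0.16 and -0.44. The prefoldin median was above 0 on each, at 0.02, 0.04, 0.01 and 0.24, but its mean was -0.014 with median centring in place of loess. Family values without 1 array weight the 2 dye orientations equally, and prefoldin was then at 0.019 without array 4. HSP70 was at -0.13 and -0.21 on arrays 1 and 2 and at 0.47 and 0.08 on arrays 3 and 4. HSP90 and the co-chaperones took their extreme values on array 4, at -0.76 and -0.90. With the mean of all tested probes of a gene in place of the brightest, the CCT value was -0.21. Without 1 array, with the same weighting of dye orientations, the CCT value ran from -0.46 to -0.21. These families were described with earlier results of these data known, and no test was made of the differences between them.

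**Figure D4:**
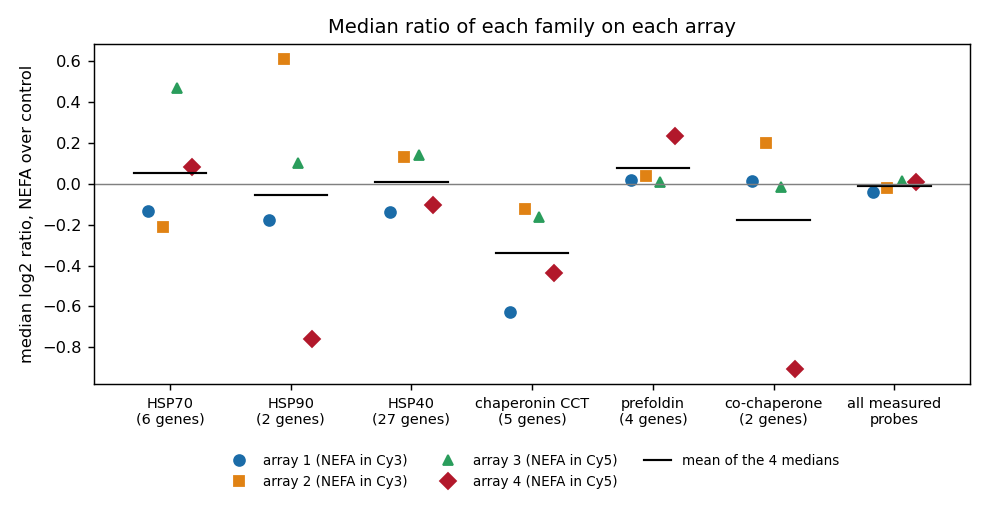
Median log2 ratio of NEFA over control (vertical axis) of the tested genes of each family on each array, with a symbol for each array and a line for the mean of the 4 medians, beside all 17144 tested probes. The CCT medians lie below 0 on all 4 arrays, between -0.63 and -0.13, and HSP90 spreads from -0.76 on array 4 to 0.61 on array 2.

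The pattern that HSP90 showed on arrays 2 and 4 was common among the members and on the array. Ratios above 0 on array 2 and below 0 on array 4 were found for 21 of 58 member probes, against 30.1% of all tested probes, and the reverse for 13, against 33.1%. Over the 48 member genes the ratios of arrays 2 and 4 correlated at r = -0.38, a description across genes that share the same arrays and pools. By array, 21, 33, 37 and 25 of the 58 member probes were above 0 on arrays 1 to 4, against 45.9%, 47.7%, 52.2% and 50.6% of all tested probes.

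Genes with more than 1 tested probe allowed a comparison of probes within a gene. Of 9 such genes, 7 had estimates on both sides of 0 (CCT7, DNAJA2, DNAJA4, DNAJC15, HSPD1, PFDN5 and TCP1), and DNAJA1 and DNAJC19 kept 1 sign. The gap between the lowest and the highest estimate was 0.12 for DNAJC19 and 0.13 for DNAJA2, 0.52 for CCT7 and 0.62 for TCP1. The probes above 0 of TCP1 and DNAJA4 were tested through the NEFA pools alone, so the filter favours their sign. The other TCP1 probes were at -0.56 and -0.29. The DNAJA2 probe below 0 was also tested through the NEFA pools alone.

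**Figure D5:**
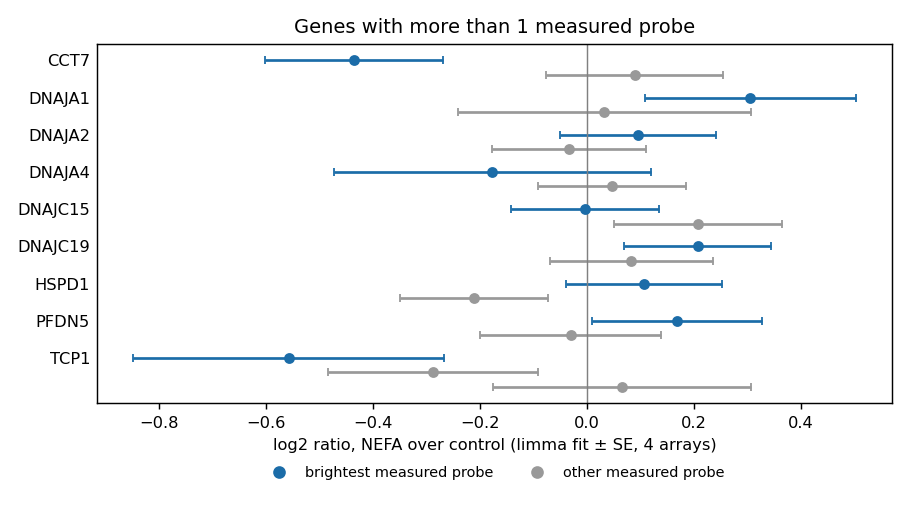
Limma estimate ± SE (log2 ratio of NEFA over control, 4 arrays, horizontal axis) of each tested probe of the 9 genes with more than 1, the brightest probe in blue and the others in grey. Estimates of 7 genes fall on both sides of 0, with the widest gap, 0.62, for TCP1. The probes above 0 of TCP1 and DNAJA4 were tested through the NEFA pools alone.

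Other genes of the folding machinery, from a list of 31 outside the symbols used to choose the members, gave the same picture. Of 23 with a probe 19 were tested, 8 with estimates above and 11 below 0, from -0.35 for CRYAB to 0.33 for UXT, and 0 passed the adjusted or the unadjusted threshold in limma. The median estimate was -0.04, against -0.0067 over all tested probes and -0.015 over 4686 tested genes with a symbol, each by its brightest probe. PTGES3, the p23 protein that closes the HSP90 cycle, had the smallest p, with ratios of 0.23, 0.61, 0.25 and -0.23 and an estimate of 0.21 ± 0.16. Its second probe was above 0 on 4 of 4 arrays at 0.11 ± 0.13. HSF1, the transcription factor of the heat shock response, was at 0.09 ± 0.17, above the limit in 2 of 4 NEFA and 3 of 4 control pools. HSF2, its relative in early development, was at -0.11 ± 0.16, and STUB1, the ubiquitin ligase that marks clients of HSP70 and HSP90, at 0.0072 ± 0.14. UNC45A, an HSP90 co-chaperone for myosin, ran from -1.30 on array 2 to 1.27 on array 4, with an estimate of -0.02 ± 0.33, and was named after its values were seen. CDC37, the kinase adaptor of HSP90, was not among the symbols of the named probes used here.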

How the data were processed

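The scanner files hold intensity values for Cy3 and Cy5 on a two-colour array of 45220 spots, deposited by the authors without normalisation, per the file headers. The authors' deposited table holds log2 ratios of Cy5 over Cy3, whose direction was found by comparison with the scanner intensities and whose centring is unknown. The submitters' processing notes name limma without a version or steps. Here, intensities were corrected with normexp (offset 50), loess-normalised within arrays and tested in limma 3.58.1 (R 4.3.3) with a dye term, 2 residual degrees of freedom and Benjamini-Hochberg adjustment over 17144 probes. Pool intensities were scaled between arrays by the A-quantile method. The 1426 control spots and spots with outlier flags were left out. Symbols came from the platform annotation: 13146 probes had 1 symbol and 30648 are unnamed here, and 9857 of 10024 symbols were found in RefSeq. Probe sequences were not used here.

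The members and lists were chosen with earlier results of these data known. Main chaperones were named whatever their value, with the gene of smallest p in each family and every gene with 1 direction on 4 of 4 arrays, and genes with probes of both signs. Other genes are marked as chosen afterwards, except VBP1, DNAJC8, DNAJC12, DNAJC16 and DNAJC24, whose values were also given outside this rule. The extremes of each range were chosen afterwards too. Alternatives covered background correction, normalisation, the filter on dim probes, the dye term, the probe per gene, the members' location and leaving out each array. The number of arrays limits the precision.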

Additional observations from a re-analysis of the deposited data

Results flagged for a closer look

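The 4 ratios of 67 genes (48 tested members and 19 other genes of the folding machinery) and the 4 medians of 6 families were screened for 1 array far from the other 3, by Dixon's test for a single distant value. The DNAJC19 ratio on array 1 was 0.031, below the 3 others at 0.25 to 0.28. The HSPH1 ratio on array 4 was -0.22, below the 3 others at 0.38 to 0.45. HYOU1, a large HSP70-like protein of the endoplasmic reticulum outside the symbols used to choose the members, was at -1.06 on array 1, below the 3 others at 0.10 to 0.33. The median of prefoldin on array 4 was 0.24, above the 3 others at 0.01 to 0.04. Chance gives such a value in about 1 in 20 groups, and the cause was not tested.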

How the results depend on the processing

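Under each alternative run, 0 member probes passed the adjusted threshold in limma, the same as in the fit reported above. Over all probes 2 were called from the authors' deposited table, against 0 as reported, and the cause was not tested. Of 296 values of 27 named ratios under alternatives, 20 turned their sign. Changes to the filter on dim probes or the dye term leave these estimates as they are, so their values could not turn. Without 1 array, the ratio ran from -0.42 to 0.027 for CCT3, -0.24 to 0.17 for CCT4, -0.36 to 0.075 for HSP90AA1, -0.24 to 0.30 for HSP90AB1, -0.51 to 0.20 for HSPA14, -0.072 to 0.24 for HSPA2, -0.084 to 0.046 for HSPA8, -0.20 to 0.13 for HSPBP1, -0.050 to 0.063 for PFDN2 and -0.18 to 0.31 for PFDN6. With median centring in place of loess, HSP90AB1 was at -0.061, PFDN2 at -0.077 and PFDN6 at -0.0085. In the authors' deposited table CCT4 was at 0.019 and PFDN2 at -0.0035. Of the families, CCT kept a value below 0 under each alternative run, from -0.46 to -0.21. Changes to the filter on dim probes, the dye term or the members' location left its value unchanged at -0.34. Family values without 1 array weight the dye orientations equally. The following did not keep 1 sign: HSP70 ran from -0.051 with median centring to 0.15 without array 4, HSP40 from -0.060 without array 2 to 0.074 without array 1, HSP90 from -0.27 without array 3 to 0.16 without array 4, prefoldin from -0.014 with median centring to 0.13 without array 3, the co-chaperones from -0.40 without array 3 to 0.046 without array 4, and HSPD1 turned to -0.053 with the mean of its probes. Over the members counted here as cytosolic, DNAJB12 and DNAJB14 among them, HSP70 was at 0.0072 and HSP40 at -0.030. With a limit of 3 SD, 25 of the 32 HSP40 probes and 7 of the 8 CCT probes were tested. A block for slide or scan date was not run, since the files used here give neither. NEFA and control are paired within each array by the ratio itself, so no further block was fitted.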
